A study of Mus musculus with 48 samples.

Results

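Tumors of the models HRM-1, MVT-1 and 6DT1 were compared with tumors of the models M6 and Met-1, all of them grown in FVB/N mice. The members were chosen by model name: 12 tumors of the first 3 models against 8 tumors of the other 2, which makes 20 of the 48 tumors of the series. Each model is a cell line that, per the labels, came from the mammary tumor of a genetically engineered mouse, and 4 tumors per model were labelled as biological replicates. The engineered genes are given in the sources used here for MVT-1 only, whose parental tumor arose in a mouse carrying Myc and VEGF transgenes under the MMTV promoter, which is active in mammary epithelium. For HRM-1, 6DT1, M6 and Met-1 they were not given in the sources used here, so the models are grouped by name, with Myc as the marker given with the grouping. Cells were put surgically into the fourth mammary fat pad of immunocompetent mice of the same strain, without treatment, and tumors were taken at a diameter of 0.5 to 1.0 cm, freed of surrounding tissue and frozen. Hosts of implanted mammary tumors were females of 6 to 8 weeks per the methods, while the labels of these tumors give neither sex nor age. RNA was measured on 1 Affymetrix Mouse Gene 1.0 ST array per tumor, and all values below are the deposited log2 signals, on which a difference of 1 is a 2-fold difference. The transcripts come from every cell of the tumor, so fewer cells of a type and less RNA per cell cannot be told apart.

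Myc is a transcription factor that binds DNA together with its partner Max at the E-box CACGTG and is best known for driving genes of ribosome production, nucleotide synthesis, glycolysis and the cell cycle. Proteins of the Mxd family, Mnt and Mga also pair with Max and compete with Myc for it. In the mammary gland, Myc transgenes under the MMTV promoter produce carcinomas in mice, and high Myc activity engages the Trp53 pathway, whose brake is Mdm2. Luminal epithelial cells of the gland are held together by Cdh1 and carry Epcam, while Zeb1, Zeb2 and Twist1 repress such epithelial genes.

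Myc was the marker given with the grouping, so its level is described without a test. In HRM-1 the tumors had Myc signals of 12.81, 12.85, 12.67 and 12.68 (12.75 ± 0.10, SD, n = 4). In MVT-1 they had 12.65, 12.57, 12.65 and 12.51 (12.60 ± 0.07, SD, n = 4). The 6DT1 tumors had 12.87, 11.91, 10.35 and 12.79 (11.98 ± 1.17, SD, n = 4), so that replicates 1 and 4 matched the other high models and replicate 3 did not. The M6 tumors had 11.03, 11.18, 10.99 and 11.02 (11.05 ± 0.08, SD, n = 4). The Met-1 tumors had 10.36, 10.67, 10.40 and 10.33 (10.44 ± 0.16, SD, n = 4). All 3 model means of HRM-1, MVT-1 and 6DT1 therefore lay above both others, while the single tumors overlapped through replicate 3 of 6DT1 alone. The difference between the sides was 1.70 (SE 0.16), and the nearest model means, those of 6DT1 and M6, were 0.93 apart. High Myc was also found outside these models: of the other 7 models, E0771 (12.28), TS/A-E1 (12.27) and D2A1 (12.03) had means above that of 6DT1, and R3T, 4T1, EMT-6 and F311 lay between 11.08 and 11.36.

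**Figure D1:**
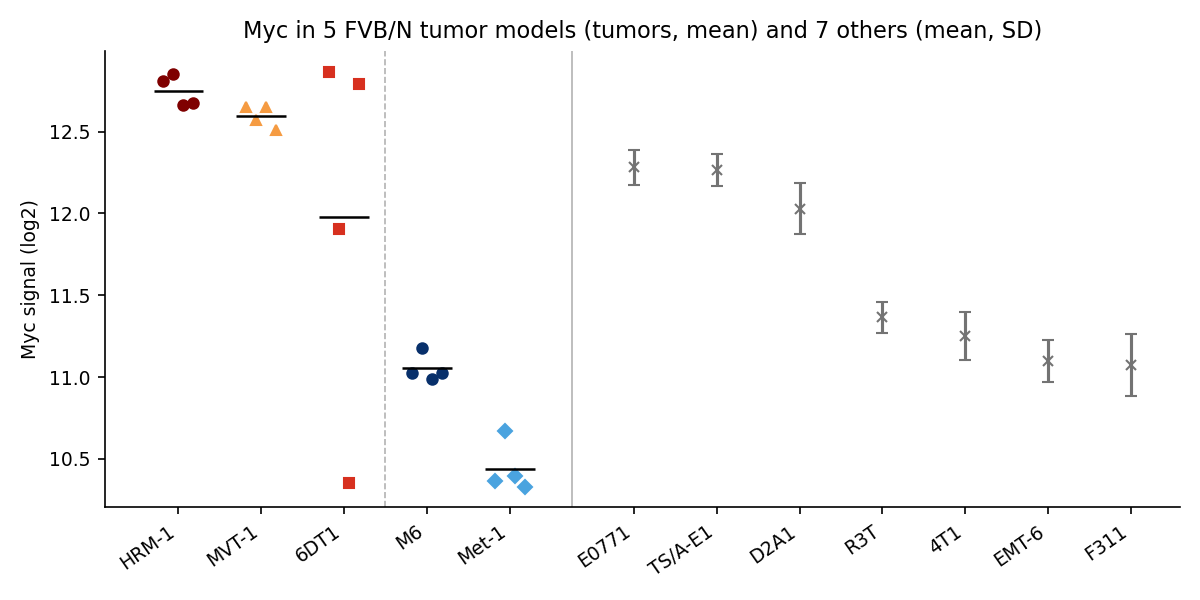
Myc signal (log2, vertical axis) in each of the 4 tumors of the 5 FVB/N models, with a bar at the model mean, and the mean ± SD (n = 4) of the other 7 models as crosses. The dashed line divides the sides compared: HRM-1 and MVT-1 sit above 12.5, M6 and Met-1 below 11.2, and the 6DT1 tumors spread from 10.35 to 12.87.

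In 3 of the 20 tumors, transcripts of fat or B cells stood out, and they are named here because 2 of them are the 6DT1 tumors with lower Myc. A score was taken as the mean over a marker list of each gene's log2 signal minus its median over the 48 tumors. Replicates 2 and 3 of 6DT1 had adipocyte scores of 3.71 and 4.02, and replicate 2 of Met-1 had a B cell score of 4.61 beside an adipocyte score of 2.25. The fat marker Adipoq, the hormone adiponectin, read 12.55 and 12.74 in these 6DT1 tumors against 6.58 and 6.67 in replicates 1 and 4. The milk protein scores of the same 6DT1 tumors were 3.74 and 3.23, and their basal cell scores 1.82 and 2.48, against at most 0.36 and -0.70 in the other 6DT1 tumors. Without these 3 tumors the Myc difference was 2.02. Their part in the results was not tested. The counts over all genes, and those list counts that moved, are also given without them. The luminal keratins Krt8 and Krt18 read high in all 5 models, with Krt8 means from 12.25 to 13.33 and Krt18 means from 11.76 to 12.98. Not all epithelial markers did. Epcam had means of 11.03 in HRM-1, 6.43 in MVT-1, 8.08 in 6DT1, 11.58 in M6 and 11.17 in Met-1, and MVT-1 had the lowest mean in 12 of 17 luminal genes.

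To find what else divided the models, the mean of the 3 model means was set against the mean of the 2 others for 19938 genes with limma. A gene was called when its Benjamini-Hochberg adjusted p was under 0.05 and its 3 model means all lay on 1 side of both others. By this rule 2009 genes were higher in HRM-1, MVT-1 and 6DT1 (10.1% of those tested) and 1638 were lower (8.22%). The median difference was 0.40 among the higher genes and -0.49 among the lower ones, and 258 and 325 of them differed by more than 2-fold. In 125 higher genes (0.627%) and 125 lower genes (0.627%) the 12 and 8 tumors did not overlap at all. In 325 higher (1.63%) and 342 lower genes (1.72%) each of the 6 pairs of models passed on its own. The p-values measure the spread between tumors of a model and not between models. The counts of gene lists below are set against the shares of all genes, 10.1% higher and 8.22% lower. With the 5 model means as the samples, 3 against 2, limma called no gene in either direction, with 904 higher and 801 lower genes at an unadjusted p under 0.05. With the model as a random block, 271 higher and 317 lower genes remained called, all of them among the genes called above. Without the 3 tumors rich in fat or B cell transcripts, 2681 genes were higher and 2053 lower, and 1774 and 1495 of these were among those called with all tumors. A call could be gained or lost there through the demand on model means alone. The shares of 10.1% and 8.22% do not hold for list counts below without these tumors or with the random block. Such counts are to be read against the counts just given, out of 19938 genes. With the random block few genes were called over all, so a list without a call there is not read as a result about its members.

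Across all genes, the models of the first side did not all resemble each other. With each gene centred on its mean over the 12 models, the model means of MVT-1 and 6DT1 correlated at r = 0.30 across genes and those of M6 and Met-1 at 0.17, but HRM-1 correlated at -0.05 with MVT-1 and at -0.19 with 6DT1. Across the sides, the values ranged from -0.28 for MVT-1 with M6 to 0.12 for 6DT1 with Met-1. Genes are not independent replicates, and these values are descriptions.

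The 10 leading genes in each direction were those with the widest gap between the nearest model means of both sides among the genes whose tumors did not overlap. Pcolce2, an enhancer of procollagen processing, led the higher genes. Its 12 tumors in HRM-1, MVT-1 and 6DT1 ranged from 9.94 to 10.74 (median 10.42) and its 8 tumors in M6 and Met-1 from 6.70 to 9.06 (median 8.04). No tumor of either side reached the other, and the difference was 2.41 (SE 0.19, adjusted p = 4.03e-13), or 5.31-fold. Cav1, the coat protein of caveolae, read 12.17, 12.20, 12.08 and 12.05 in HRM-1, 12.33, 12.01, 12.11 and 12.21 in MVT-1, and 12.03, 12.18, 12.26 and 11.85 in 6DT1. In M6 it read 9.75, 11.02, 11.26 and 10.07, and in Met-1 10.27, 11.02, 9.96 and 9.69. The high side was narrow and the low side wide, and the means differed by 1.75 (SE 0.15, adjusted p = 3.83e-12). Antxr2, a receptor for anthrax toxin and matrix proteins, ran from 10.21 to 11.01 on the high side and from 8.87 to 9.77 on the other.

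Mgl2, a lectin of macrophages and dendritic cells, was the most different of the 10 by fold, at 5.98-fold (difference 2.58, SE 0.25, adjusted p = 6.58e-11), with tumors from 9.30 to 11.40 against 7.33 to 8.92. Il34, a ligand of the macrophage receptor Csf1r, ran from 8.61 to 9.61 against 7.19 to 8.11 (difference 1.61, SE 0.13). Ptges, the synthase of prostaglandin E2, and Ltc4s, the synthase of leukotriene C4, both make lipid mediators from arachidonic acid. Ptges was 3.36-fold and Ltc4s 2.93-fold higher, with model means of 10.32, 9.24 and 9.75 against 8.01 and 8.03 for Ptges. The remaining genes of the 10 were Zfp57, a zinc finger protein that guards imprinted DNA methylation (difference 1.66), Padi3, an enzyme that converts arginine to citrulline (1.98), and Fbxl21, an F-box protein that acts on cryptochromes (1.76). The lowest 6DT1 tumor for Fbxl21 read 6.09 and the highest Met-1 tumor 6.08, and its low side, from 5.65 to 6.08, lay close to the level of 5.65 that bounds the dimmest 30% of clusters.

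Gabrp, the pi subunit of the GABA-A receptor, led the lower genes by fold, at 30.0-fold, with its MVT-1 tumors close to the dim level of 5.65. It read 7.65, 6.71, 6.74 and 7.08 in HRM-1, 6.00, 5.99, 5.75 and 5.80 in MVT-1, and 6.00, 8.39, 8.83 and 5.81 in 6DT1. In M6 it read 12.37, 11.91, 11.76 and 12.40, and in Met-1 11.73, 10, 11.51 and 11.39. The highest values of the low side were those of the fat-rich 6DT1 replicates 2 and 3, and the lowest of the high side that of Met-1 replicate 2. The difference was -4.91 (SE 0.30, adjusted p = 7.11e-16), and without those 3 tumors it was -5.55. Ehf, an Ets transcription factor of epithelial cells, showed the same arrangement of tumors: replicates 2 and 3 of 6DT1 read 10.08 and 8.48 while the other 10 tumors of HRM-1, MVT-1 and 6DT1 lay between 5.86 and 6.92. Its 8 tumors in M6 and Met-1 lay between 10.19 and 11.55, and the difference was -4.08 (SE 0.37, adjusted p = 2.03e-11). Ildr1, a protein of junctions where 3 cells meet, had model means of 6.64, 6.77 and 7.42 against 9.88 and 10.30.

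Neto2, an auxiliary subunit of kainate receptors, was low in every tumor of the first side, from 5.20 to 6.04, and lay between 7.51 and 9.36 in the others (difference -3.25, SE 0.19, adjusted p = 2.12e-16). Zdhhc15, an enzyme that attaches palmitate to proteins, had the smallest adjusted p of the 20 leading genes, 1.26e-19, with tumors from 5.91 to 7.11 against 8.37 to 9.68. The homeobox factor Dlx5 had means of 5.85, 5.89 and 6.01 against 9.42 and 8.43, and Met-1 replicate 2 again was the lowest of its side at 6.86. Hey1, a repressor that is a direct target of Notch signaling, was 11.6-fold lower, with tumors from 6.65 to 8.92 against 9.74 to 11.91. The other 3 genes were the actin-binding profilin Pfn2 (difference -3.31), Hid1, which acts in the formation of secretory granules (-3.11), and Slain1, a protein of growing microtubule ends (-2.54). In the other 7 models of the series the highest mean was 8.97 in R3T for Gabrp and 9.12 in D2A1 for Pfn2, while for Neto2 it was 5.86, also in R3T. For the leading higher genes Pcolce2, Cav1, Zfp57, Padi3, Il34, Antxr2 and Ptges, another model had a mean above all 3 of the first side. Examples are Zfp57 with 10.67 in D2A1 and Ptges with 11.40 in E0771. For Mgl2, Ltc4s and Fbxl21 none of the other models did.

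**Figure D2:**
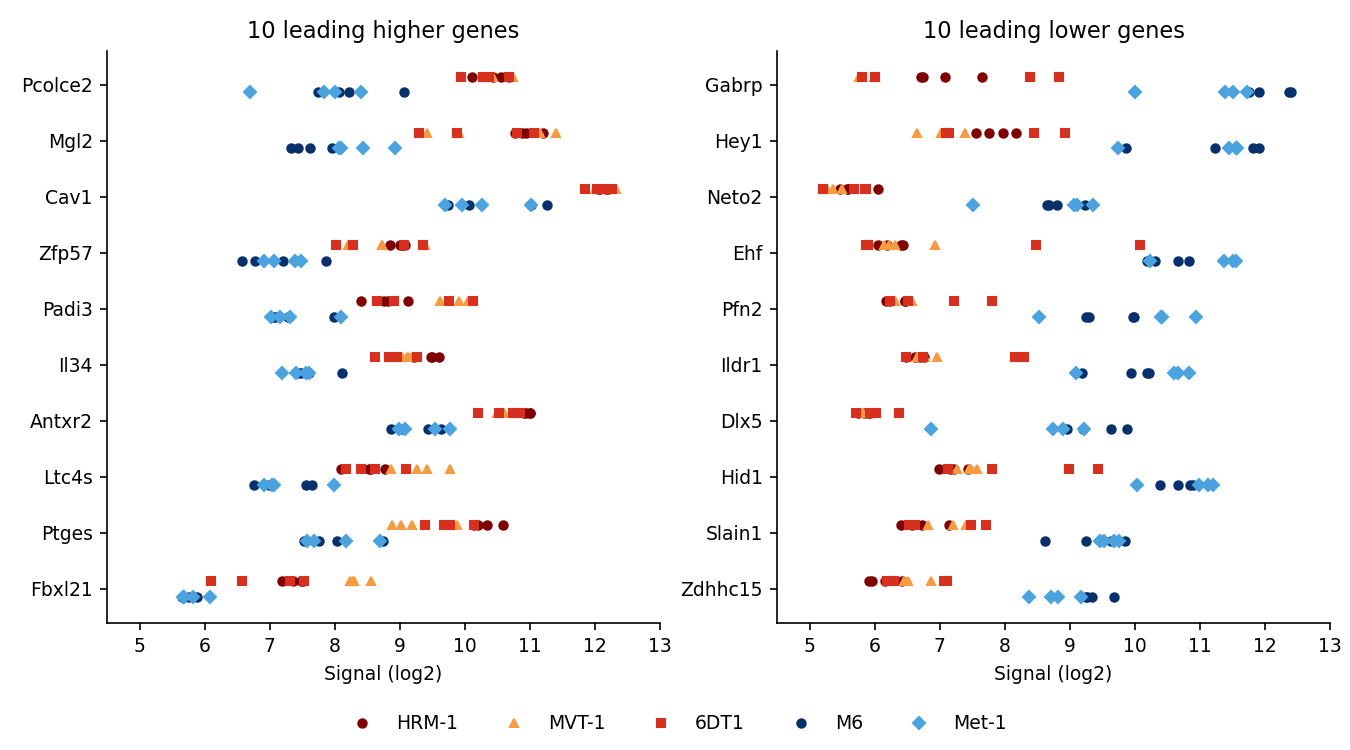
Signal (log2, horizontal axis) of the 10 leading higher and 10 leading lower genes in the 20 tumors, 1 point per tumor and 1 color and symbol per model; upper points of each gene are HRM-1, MVT-1 and 6DT1 and lower points M6 and Met-1. The sides do not overlap in any of the 20 genes, and for Gabrp the gap lies between 8.83 and 10.

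The E-box was looked for in the promoters because Myc was the marker of the grouping. RefSeq windows of 250 bases before to 50 bases after the start of a gene, on GRCm38.p6, were at hand for 15563 of the genes tested, and 1481 of them (9.52%) held CACGTG, which reads the same on both strands. Of the higher genes with a window 212 of 1653 (12.83%) held it, and of the lower genes 116 of 1252 (9.27%). Over all members with a window, called or not, it was 7 of 23 (30.43%) in the ribosome biogenesis list. In the list of nucleotide, polyamine and one-carbon synthesis it was 2 of 17 (11.76%). The shares of these lists do not depend on the tumors compared. To show where the motif sits, the windows with it are given for the genes with the widest gap in each direction, 2 higher (Tuba8, an alpha tubulin, and Ctsl, the lysosomal protease cathepsin L) and 2 lower (Pfn2 and Sox8, a SoxE transcription factor), with the 6 bases of the motif in capitals. The windows lie at chr6:121210484-121210783 on the plus strand for Tuba8 and, on the minus strand, at chr13:64370471-64370770 for Ctsl, chr3:57847708-57848007 for Pfn2 and chr17:25570637-25570936 for Sox8.
Tuba8: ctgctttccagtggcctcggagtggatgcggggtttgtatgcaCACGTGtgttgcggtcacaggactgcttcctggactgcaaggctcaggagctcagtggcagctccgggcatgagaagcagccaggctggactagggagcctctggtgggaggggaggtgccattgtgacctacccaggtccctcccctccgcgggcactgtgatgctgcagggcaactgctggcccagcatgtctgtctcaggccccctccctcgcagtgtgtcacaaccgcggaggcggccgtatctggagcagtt
Ctsl: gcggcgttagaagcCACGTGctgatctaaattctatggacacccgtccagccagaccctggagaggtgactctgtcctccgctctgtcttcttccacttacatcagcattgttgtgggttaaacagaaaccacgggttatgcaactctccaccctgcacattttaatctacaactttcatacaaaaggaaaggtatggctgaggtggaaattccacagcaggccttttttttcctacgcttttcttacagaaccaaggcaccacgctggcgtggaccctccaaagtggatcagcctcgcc
Pfn2: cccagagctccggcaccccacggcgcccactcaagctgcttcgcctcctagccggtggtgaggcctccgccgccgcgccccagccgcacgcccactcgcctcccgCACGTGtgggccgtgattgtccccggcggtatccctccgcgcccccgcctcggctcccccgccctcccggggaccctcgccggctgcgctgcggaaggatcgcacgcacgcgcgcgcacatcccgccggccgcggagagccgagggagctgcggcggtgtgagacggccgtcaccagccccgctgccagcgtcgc
Sox8: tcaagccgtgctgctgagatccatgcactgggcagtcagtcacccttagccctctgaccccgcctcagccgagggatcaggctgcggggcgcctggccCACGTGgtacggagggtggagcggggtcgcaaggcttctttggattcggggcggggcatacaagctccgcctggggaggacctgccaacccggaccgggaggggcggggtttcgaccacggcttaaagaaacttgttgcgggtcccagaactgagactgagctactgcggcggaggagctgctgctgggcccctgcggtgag
The motif began 207 and 236 bases before the start in Tuba8 and Ctsl and 145 and 152 bases before it in Pfn2 and Sox8. Tuba8 tumors ran from 8.62 to 9.75 against 7.44 to 8.61, and Ctsl tumors from 11.52 to 12.46 against 10.10 to 11.39. Sox8 tumors ran from 6.81 to 7.34 against 7.71 to 9.07. The genes shown were picked for holding the motif, so its presence in both directions was fixed beforehand and is no result.

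Of the 12 genes of the Myc family and Max network measured beside Myc itself, 1 was called higher, Mga, and none lower (8.3% against 10.1% of all genes). Without the 3 tumors rich in fat or B cell transcripts 4 were higher and 1 lower. Mga, a Max partner that represses E-box genes, ran from 9.45 to 9.87 in the first side and from 8.60 to 9.64 in the other (difference 0.67, SE 0.08, adjusted p = 3.67e-09). The tumors overlapped only through Met-1 replicate 2, the highest of its side. The relatives Mycn and Mycl had their highest mean in M6, 7.64 and 7.39, and means from 6.54 to 6.86 in the other 4 models. Max itself had means of 10.70, 10.77 and 10.36 against 10.27 and 10.72.

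All genes of ribosome production that were called were higher, though they divided the models less evenly than Myc. Of 28 measured members 5 were called higher and none lower (17.9% against 10.1% of all genes), and the median difference was 0.25 against 0.03 over all genes. The 5 were Nop16 and Wdr12, named by rule, and Ncl, Polr1a and Ddx21, named after their values were seen. Nop16, a nucleolar protein, had tumors of 11.72, 11.78, 11.68 and 11.70 in HRM-1, 11.38, 11.25, 11.40 and 11.42 in MVT-1, and 11.50, 10.95, 10.79 and 11.56 in 6DT1. The M6 tumors read 11.03, 11.06, 10.96 and 11.12 and the Met-1 tumors 10.96, 10.82, 11.06 and 10.93, so that replicates 2 and 3 of 6DT1 again lay among the low tumors. The difference was 0.44 (SE 0.07, adjusted p = 2.84e-06). Without the 3 tumors rich in fat or B cell transcripts, 16 of the 28 were called higher, with a median of 0.38. HRM-1 had the highest mean of the 5 models in 26 of the 28 genes and Met-1 the lowest in 16. With the model as a random block none of the 28 was called.

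Of 18 measured members of nucleotide, polyamine and one-carbon synthesis none was called higher and 1 was lower (5.6% against 8.22% of all genes). The lower one was the thymidylate synthase Tyms (difference -0.92, SE 0.13, adjusted p = 2.26e-07). Odc1, the first enzyme of polyamine synthesis, had means of 10.98, 10.23 and 9.61 against 9.69 and 9.64, so that 6DT1 lay below both low models. Its 6DT1 tumors read 9.32 and 8.71 in the fat-rich replicates 2 and 3 and 10.27 and 10.14 in replicates 1 and 4. With the 3 rich tumors left out, 3 of the 18 were called higher, Odc1 (difference 0.71), Srm and Mthfd1l, and the median difference went from 0.04 to 0.17. With the random block none was called. Of 17 glycolysis and hypoxia genes 6 were higher (35.3% against 10.1%) and 1 was lower (5.9% against 8.22%). Hk2, the hexokinase that traps glucose in the cell, read from 9.12 to 10.92 against 7.62 to 9.01 and did not overlap (difference 1.08, SE 0.17, adjusted p = 3.28e-06). Pfkp, a phosphofructokinase, was 1.74-fold higher. Aldoa, Pdk1, Bnip3 and Vegfa, named after their values were seen, differed by 0.16 to 0.72. The carbonic anhydrase Car9 went the other way, with means of 8.55, 7.46 and 7.13 against 9.03 and 9.32. Without the 3 rich tumors 4 were higher and 1 lower, and with the random block none of these 17 genes was called.

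The few genes of cell division that were called were lower, not higher, in HRM-1, MVT-1 and 6DT1. Of 14 proliferation and mitosis genes 4 were called lower and none higher (28.6% against 8.22%; median -0.46), and of 19 replication genes 3 were lower and none higher (15.8%; median -0.52). With the model as a random block none of the 14 and 1 of the 19 were called. Without the 3 tumors rich in fat or B cell transcripts 6 and 5 were lower and none higher. Mki67, the antigen of cycling cells, read 10.18, 10.41, 10.38 and 10.37 in HRM-1, 10.28, 10.63, 10.59 and 10.81 in MVT-1, and 10.71, 10.12, 9.80 and 11.02 in 6DT1. The M6 tumors read 11.75, 11.60, 11.39 and 11.78, above all others, and the Met-1 tumors 11.01, 10.43, 10.97 and 10.88, which overlapped with the first side. The difference was -0.78 (SE 0.12, adjusted p = 5.94e-07). Ccna2, cyclin A2, differed by -0.81 (SE 0.14), Mcm5, a subunit of the replicative helicase, by -0.97 (SE 0.10), and Rfc4, a subunit of the clamp loader, by -1.09 (SE 0.10). M6 carried most of this: it had the highest mean of the 5 models in 13 of the 14 proliferation genes and in all 19 replication genes, and 6DT1 had the lowest in 13 and 16. Without M6 the difference of Mcm5 was -0.31 (adjusted p = 0.0599). The calls of Mcm5 and Rfc4 rested on narrow gaps, with HRM-1 means of 10.15 and 10.53 beside 10.25 and 10.55 in Met-1. That of Rfc4 was lost without Met-1 replicate 1, 3 or 4. Another 10 of the 14 and 16 of the 19 genes were not called. Among these, named after their values were seen, HRM-1 lay above Met-1 for Mcm2 (10.18 and 9.83), Mcm6 (10.36 and 9.54) and Cdk1 (11.12 and 10.64). For E2f2 it lay below Met-1 (7.645 and 7.749). Birc5 and Tk1, named after their values were seen, were lower against both models, Birc5 with means of 8.68, 8.26 and 8.18 against 9.46 and 9.51.

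Of 13 cyclins, CDKs and their inhibitors 4 were called lower (30.8% against 8.22%) and none higher, and none was called with the random block. With the rich tumors left out, 4 were lower and 1, Cdk6, higher. Cdkn2c, an inhibitor of Cdk4 and Cdk6, had means of 8.02, 8.84 and 9.27 against 10.28 and 10.20 (difference -1.53, SE 0.21, adjusted p = 1.43e-07). Its 6DT1 tumors split, with 8.10 and 8.49 in replicates 1 and 4 and 10.11 and 10.38 in the fat-rich replicates 2 and 3. Cdkn1b, the inhibitor p27, differed by -0.54 (SE 0.05), but the call was lost when the clusters of the gene were averaged. The retinoblastoma gene Rb1 and the D cyclin Ccnd3 were the others, named after their values were seen, with differences of -0.60 and -0.23.

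Targets of Trp53 were higher in large part. Of 13 measured members 8 were called higher and none lower (61.5% against 10.1%), with a median difference of 0.44. Mdm2, the ubiquitin ligase that removes Trp53 protein, was high in HRM-1 alone: its tumors read 12.98, 12.91, 12.65 and 12.71 there and from 8.96 to 10.07 in the other 4 models. The difference of 1.24 (SE 0.09, adjusted p = 2.11e-14) was therefore mostly that of 1 model, and without HRM-1 it was 0.17 (adjusted p = 0.17). Ccng1, cyclin G1, divided every tumor: HRM-1 read 12.46, 12.43, 12.20 and 12.44, MVT-1 11.97, 12.00, 12.03 and 12.03, and 6DT1 11.91, 11.86, 11.89 and 11.90. M6 read 11.12, 11.39, 11.74 and 11.37 and Met-1 11.31, 11.77, 11.54 and 11.16. The difference was 0.67 (SE 0.06, adjusted p = 2.41e-11). The other 6, named after their values were seen, were Eda2r, a death receptor of the TNF receptor family, Zmat3, an RNA-binding protein, Trp53inp1, the nuclease Aen, the BH3 protein Bbc3 and Mdm4, a relative of Mdm2. Eda2r read 7.62, 7.39, 6.99 and 7.58 in HRM-1, 7.94, 7.56, 7.69 and 7.80 in MVT-1, and 7.64, 6.29, 5.96 and 7.67 in 6DT1, with M6 and Met-1 tumors between 5.53 and 6.73. Zmat3 had means of 8.98, 8.42 and 8.29 against 7.09 and 7.91. Of the 8 called genes, only Ccng1 and Eda2r passed in each of the 6 pairs of models. Some gaps between model means were narrow, as for Aen (7.91 in 6DT1, 7.77 in M6) and Trp53inp1 (10.05 in 6DT1, 9.83 in Met-1). Among the models compared, HRM-1 had the highest mean in 7 of the 13 genes and M6 the lowest in 7. With the model as a random block 2 of the 13 were called. Trp53 and Cdkn1a were on probe clusters that name more than 1 gene or none and were not analysed here.

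**Figure D3:**
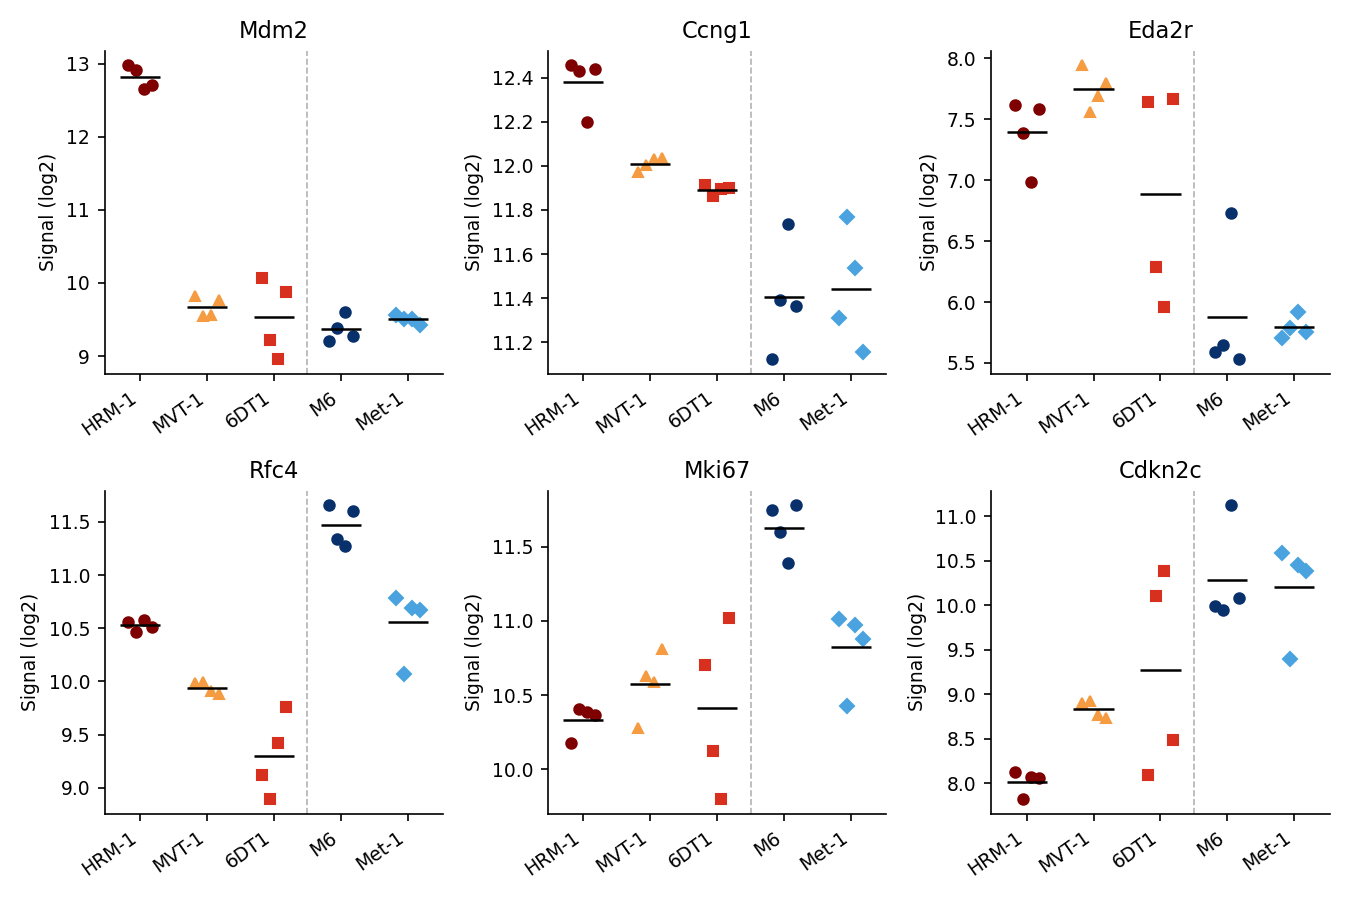
Signal (log2, vertical axis, not starting at 0) of 3 Trp53 targets (top) and 3 cell cycle genes (bottom) in the 4 tumors of each model, with a bar at the model mean and a dashed line between the sides. Mdm2 is near 12.8 in HRM-1 and below 10.1 elsewhere, Ccng1 divides all 20 tumors, and Mki67 is highest in M6.

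Luminal epithelial genes gave the median difference farthest from 0 among the lists. Of 17 measured members 7 were called lower and none higher (41.2% against 8.22%), and the median difference was -1.81. Muc1, a mucin of the luminal surface, read 6.89, 6.42, 6.82 and 6.51 in HRM-1, 6.13, 6.39, 6.22 and 6.47 in MVT-1, and 6.79, 8.65, 7.77 and 6.65 in 6DT1, against 7.95 to 9.59 in M6 and Met-1 (difference -1.91, SE 0.23, adjusted p = 7.83e-09). The means of Ehf and Muc1 were low in all 3 models, but those of other members were not. Epcam, named after its values were seen, read 11.09, 10.92, 11.11 and 11.01 in HRM-1, 5.86, 6.80, 6.19 and 6.88 in MVT-1, and 5.73, 10.16, 10.47 and 5.96 in 6DT1. M6 tumors read 11.02 to 11.90 and Met-1 tumors 10.40 to 11.49. HRM-1 was thus among the Epcam-high models, with a mean of 11.03 beside 11.17 in Met-1, and the separation of means rested on a narrow gap. The same held for Cdh1, Esrp1, a splicing factor of epithelia, and the protease inhibitor Spint1, whose HRM-1 means were 10.90, 10.55 and 10.98 beside 10.92 and 11.00 in Met-1 for Cdh1 and Spint1 and 10.74 in M6 for Esrp1. Foxa1 was the last of the 7. MVT-1 had the lowest mean in 12 of the 17 genes, and HRM-1 had the highest in 6, as many as M6. With the random block 2 of the 17 were called. Leaving out the 3 rich tumors gave 8 lower and 1 higher, Krt8.

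Mesenchymal genes held the largest share of higher calls, 7 of 11 (63.6% against 10.1%), with 1 lower. With the model as a random block 2 were higher and 1 lower. Vim, vimentin, read from 13.25 to 13.48 against 12.99 to 13.23, a small difference of 0.26 (SE 0.03, adjusted p = 5.73e-10) without overlap. Zeb1, named after its values were seen, had means of 9.32, 10.48 and 10.10 against 8.72 and 8.91, and S100a4, a calcium-binding protein of motile cells, 10.63, 11.35 and 9.45 against 8.52 and 8.36. Zeb2, Twist1, Prrx1 and Fn1 differed by 0.26 to 1.08. Cdh2, the cadherin that often replaces Cdh1 in mesenchymal cells, was the exception and lower: its tumors read from 6.12 to 7.74 against 7.84 to 9.82, without overlap (difference -2.20, SE 0.20, adjusted p = 3.26e-11). No basal or myoepithelial gene of 10 was called in either direction, and without the 3 rich tumors 1, Trp63, was lower. The luminal score ran from -1.74 to 0.86 in HRM-1, MVT-1 and 6DT1 and from 0.29 to 1.38 in M6 and Met-1.

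**Figure D4:**
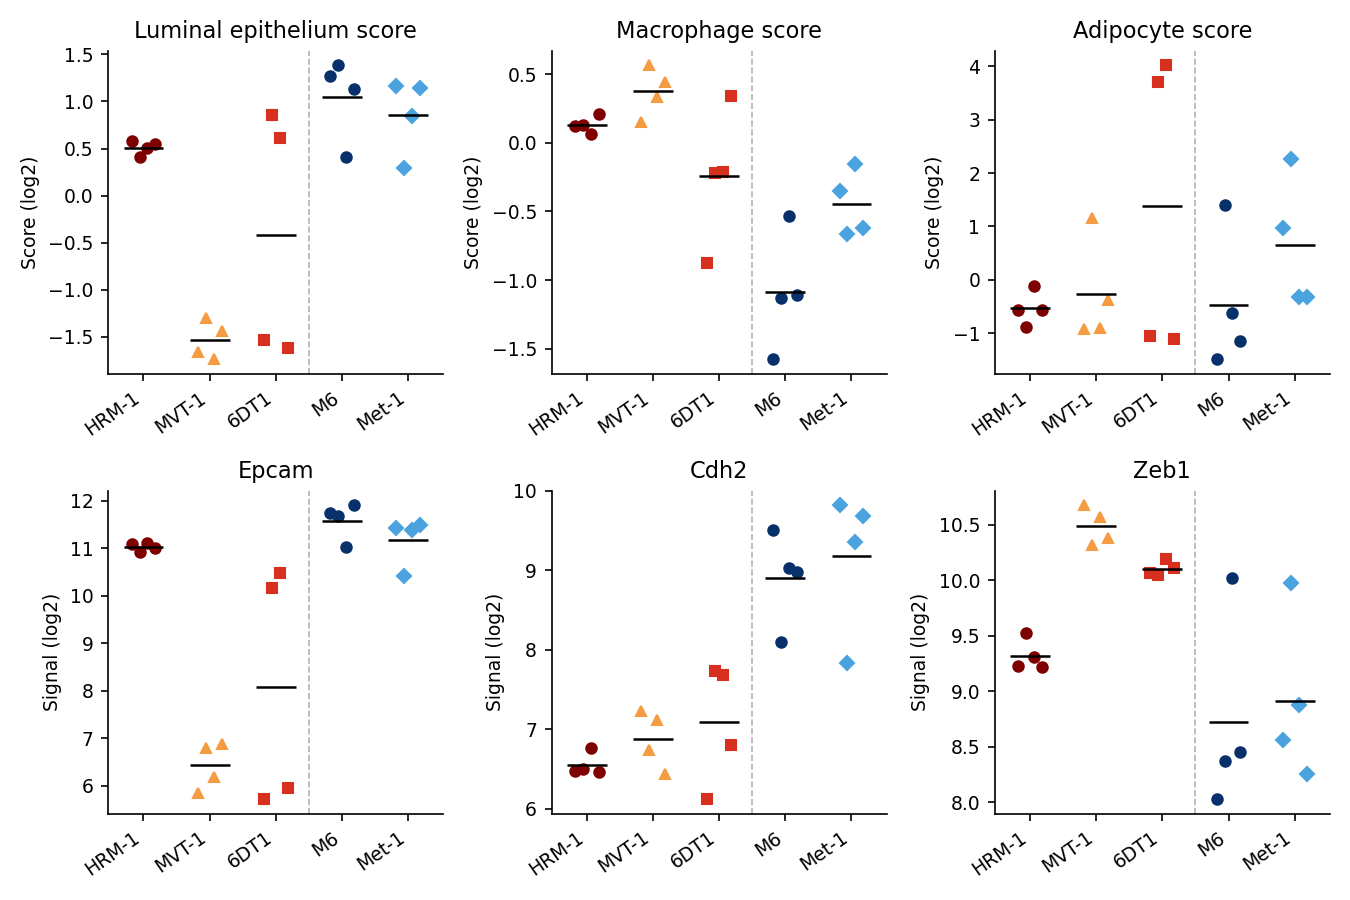
Top, scores (mean log2 signal of a marker list relative to the median of the 48 tumors) for luminal epithelium, macrophages and adipocytes; bottom, signals (log2, axes not starting at 0) of Epcam, Cdh2 and Zeb1; 4 tumors per model with a bar at the mean and a dashed line between the sides. The 6DT1 tumors with adipocyte scores of 3.71 and 4.02 are those with Epcam above 10, and HRM-1 lies with M6 and Met-1 for Epcam but not for Cdh2.

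Macrophage genes were higher with 5 of 11 members (45.5% against 10.1%), none lower, and a median of 0.81. Cd68, a lysosomal protein of macrophages, ran from 10.77 to 12.01 against 10.12 to 11.03 (difference 0.83, SE 0.11, adjusted p = 1.57e-07), and Itgam, the integrin CD11b, from 8.90 to 10.48 against 7.74 to 9.44 (difference 1.21, SE 0.17, adjusted p = 2.42e-07). The tumors overlapped in both. Mrc1, Cd163 and Msr1, receptors of resident and tumor macrophages, differed by 1.63, 1.12 and 1.24 and were named after their values were seen. The call of Msr1 rested on a very narrow gap, with means of 9.402 in 6DT1 and 9.398 in M6, beside 11.20 in HRM-1 and 11.14 in MVT-1. Csf1r, the receptor of Csf1 and Il34, did not separate the models, with means of 11.20, 11.16 and 10.58 against 9.70 and 10.81. The macrophage score ran from -0.87 to 0.56 in the first side and from -1.58 to -0.15 in the other, lowest in M6. Single tumors did not follow it in every gene: 6DT1 replicate 1 had the lowest score of its side, -0.87, and the highest 6DT1 signals of Il34 (9.27), Csf1 (10.20) and Ccl2 (11.77). The same tumor had the lowest 6DT1 signal of Mgl2 (9.30). It had the highest 6DT1 signal of Cd68 (11.84), which is itself a member of the score. The part of macrophage content in the values of Mgl2, Il34 and the chemokines was not tested. With the random block none of the 11 was called.

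Among 17 chemokines and colony-stimulating factors 5 were higher and none lower (29.4% against 10.1%), and 2 were called with the model as a random block. Leaving out the rich tumors gave 6 higher and 1 lower. Csf1, the growth factor of macrophages, read from 9.82 to 10.58 against 8.04 to 9.73 and did not overlap (difference 1.05, SE 0.11, adjusted p = 2.13e-10). Ccl7, which draws monocytes, read 10.23, 10.38, 10.02 and 10.17 in HRM-1, 11.07, 11.12, 10.97 and 11.51 in MVT-1, and 10.69, 10.31, 9.51 and 10.79 in 6DT1, against 7.84 to 9.71 in M6 and Met-1 (difference 1.54, SE 0.17, adjusted p = 3.14e-09). Its neighbor Ccl2, with Cxcl1 and Csf2 named after their values were seen, had means of 9.99, 11.69 and 10.55 against 8.76 and 9.16. Of 11 T and NK cell genes 1 was higher (9.1%, near the share of all genes; 2 without the 3 rich tumors), the granzyme Gzmb, which stood out in MVT-1 with a mean of 9.39 beside 6.39 in HRM-1 and 7.44 in 6DT1, against 5.98 and 6.26. No member of the endothelial (10), neutrophil (10), B cell (5) or adipocyte (7) lists was called, and without the 3 rich tumors 1 endothelial gene, Tek, was lower. Their scores overlapped between the sides, with endothelial scores from -0.69 to 1.37 against -0.50 to 0.62. Of 14 fibroblast and matrix genes 2 were called higher, Col6a1 and Thy1 (14.3%). Without the 3 rich tumors none was higher and 1, Lum, was lower. The differences of Col6a1 and Thy1 went from 0.42 to 0.34 and from 0.51 to 0.48 and still passed on adjusted p (0.0346 and 0.0313), so that these calls ended through the demand on model means.

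The lists of growth factor pathways gave calls in both directions. Since MVT-1 carries a VEGF transgene, the VEGF family is given first: Vegfa had its highest mean in HRM-1 (11.12), not in MVT-1 (10.54), and 10.89 in 6DT1, against 10.28 and 10.51. Vegfb read from 9.71 to 10.41 against 9.03 to 9.67 and did not overlap (difference 0.52, SE 0.06, adjusted p = 1.07e-08), and the lymphatic receptor Flt4 was lower. These were 2 higher and 1 lower of 10 members (20% and 10%), against 1 higher and none lower without the 3 rich tumors, and none with the random block. Of 18 genes of the Ras-MAPK response 3 were higher (16.7% against 10.1%) and 5 lower (27.8% against 8.22%). With the random block none was higher and 1 lower, and without the 3 rich tumors 4 were higher and 5 lower. The lower ones included the early gene Egr1, whose M6 mean of 10.73 stood above 9.43 in Met-1 and 8.83 to 9.16 in the rest (difference -1.07, SE 0.12), and Phlda1, which was highest in Met-1 at 10.93. The negative regulators Dusp4, Dusp6 and Spry2 had differences of -0.76, -0.70 and -0.47, while Spred1, Spred2 and the Ets factor Etv4 were higher. Of 11 ErbB genes 1 ligand was higher, Ereg (difference 0.66), and 1 lower, Btc (-0.60), or 9.1% each, near the shares of all genes. Without the 3 rich tumors 1 was higher and 3 were lower, and with the random block none was called. The M6 and Met-1 tumors of Ereg read from 5.73 to 6.07, close to the dim level of 5.65.

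Of 12 members of the Notch pathway 4 were lower and none higher (33.3% against 8.22%), and 1 was called with the model as a random block. The 4 were Hey1, Notch4 and the targets Hes1, with means of 9.16, 9.15 and 8.94 against 10.03 and 9.49, and Hey2, with 5.96, 5.43 and 6.13 against 8.28 in M6 and 6.23 in Met-1. Hey2 was thus near the dim level of 5.65 in most models and differed mainly from M6. The related target Heyl was not called, with means of 9.32, 7.79 and 8.02 against 8.47 and 8.21 (difference 0.04, adjusted p = 0.845). The receptor Notch4 differed by -0.25. Notch1 and the ligand Jag1 did not separate the models, with differences of -0.21 (SE 0.11) and 0.02 (SE 0.10). Of 17 TGF-beta genes 3 were lower (17.6% against 8.22%) and none higher, and with the random block 1 was lower. Without the 3 rich tumors 3 were lower and 3 higher, Tgfb1, Smad3 and Ltbp1. The integrin subunits Itgb8 and Itgb6 belong to integrins that release TGF-beta from its latent form. Itgb8 read 6.95, 6.96, 6.80 and 6.89 in HRM-1, 8.32, 7.15, 8.15 and 6.82 in MVT-1, and 6.63, 8.49, 8.35 and 6.67 in 6DT1, against 10.40 to 10.99 in M6 and 8.26 to 9.67 in Met-1. Its difference was -2.62 (SE 0.23, adjusted p = 6.34e-12), or 6.13-fold, and the sides overlapped only through Met-1 replicate 2 at 8.26. The signal transducer Smad2 was lower by a small margin (difference -0.41, SE 0.05). Tgfb1 had means of 11.00, 11.20 and 10.54 against 10.58 and 10.14, so that 6DT1 and M6 did not separate. Its 6DT1 tumors read 10.14 and 9.86 in the fat-rich replicates 2 and 3 and 11.06 and 11.12 in replicates 1 and 4. Tgfb1 was called higher without the 3 rich tumors, with a difference of 0.85 (adjusted p = 1.11e-17) in place of 0.55. Of 15 Wnt genes Wnt5a and Wnt10a were higher (13.3%) and Wnt5b lower (6.7%). The counts were 2 higher and 3 lower without the 3 rich tumors and none with the random block. Wnt10a stood out in HRM-1 alone, at 10.87 against 7.58 to 8.27.

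The other lists held few calls, and none with the random block. Of 13 interferon-induced genes 1 was lower (7.7%, near the 8.22% of all genes), Ifit1 (difference -1.08, SE 0.19), and 6DT1 had the lowest mean in 12 of the 13. None of 9 MHC class I and antigen processing genes was called, and HRM-1 had the lowest mean in 7 of them and Met-1 the highest in 7. Of 5 milk protein genes Wap was lower (20% against 8.22%), through Met-1 with a mean of 8.86 beside 6.65 to 6.95 in the other 4 models. Of 8 hormone receptors the retinoic acid receptor Rara was higher (12.5%, near the 10.1% of all genes), with a difference of 0.47 (SE 0.07, adjusted p = 1.88e-06). Of 12 genes of amino acid transport and stress the glutamine carrier Slc1a5 was higher (8.3% against 10.1%). Slc7a5 and Slc3a2, which pair to import leucine, were lower by small amounts (16.7% against 8.22%). These lists gave, without the 3 rich tumors, 2 lower interferon-induced genes, 2 lower milk proteins, 2 higher and 1 lower hormone receptors, and 2 higher and 1 lower genes of amino acid transport and stress.

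**Figure D5:**
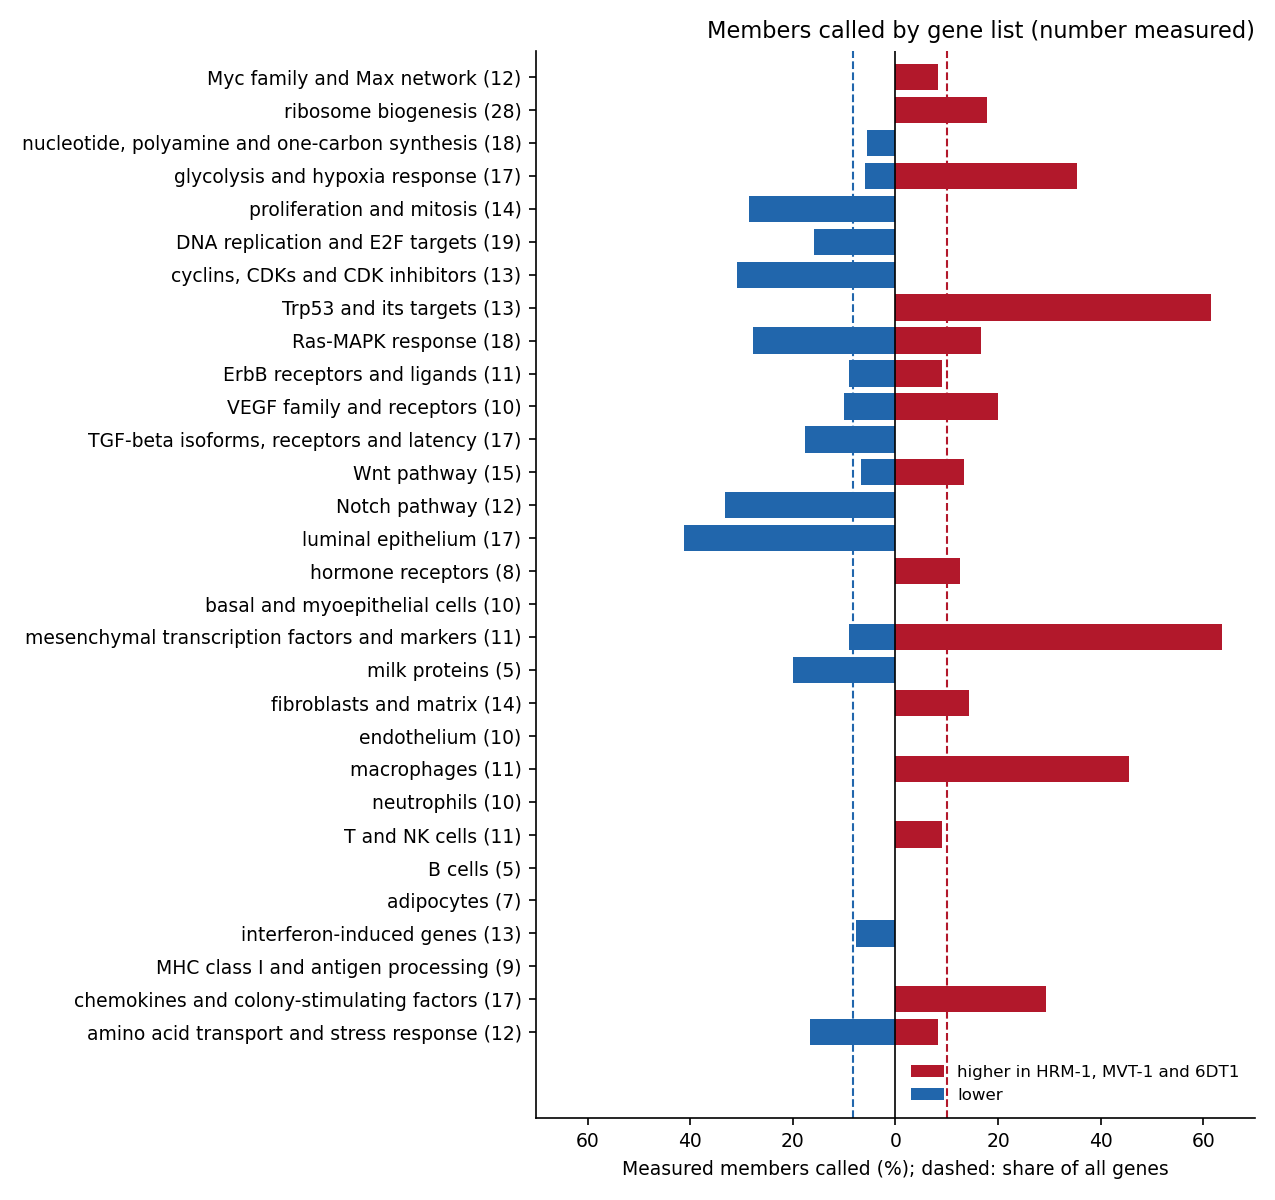
Share of the measured members of each gene list called higher (right) or lower (left) in HRM-1, MVT-1 and 6DT1 against M6 and Met-1, in percent, with the number of measured members after each name; dashed lines mark the share of all 19938 genes, 10.1% higher and 8.22% lower; Myc itself is not counted. Mesenchymal genes (63.6%) and Trp53 targets (61.5%) have the longest bars to the right and luminal genes (41.2%) the longest to the left.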

How the data were processed

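Total RNA of 48 tumors, 4 of each of 12 models, was hybridized to 1 array each. The deposited table holds log2 signals per probe cluster that the authors had normalized already, and the method and software of that step were not given in the sources used here. Array medians of the 20 tumors lay between 6.76 and 6.94, and no 2 arrays correlated above 0.997. Array data give no read depth, so the number of arrays limits the precision. Of 35556 clusters, 21789 name 1 gene in the platform annotation, 1621 name several and 12146 none. Genes were named from the clusters with 1 gene, of which 21698 were matched to RefSeq by Entrez number, and for 999 genes with several clusters the cluster with the highest mean over 48 arrays was taken, leaving 19938 genes. Genes on clusters with several names were not used here.

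limma 3.58.1 in R 4.3.3 was fitted with 1 group per model over all 48 arrays (lmFit, eBayes), and the contrast set the mean of 3 model means against the mean of 2, with Benjamini-Hochberg adjustment over all genes. Other settings tried were quantile normalization, centring, averaging clusters, a filter on the dimmest 30% of clusters, an intensity trend, a robust prior, only the 20 tumors, model means as samples, the model as a random block, the t-test of the study's methods, each pair of models, no demand on means, a replicate block, leaving out each tumor or model, and leaving out tumors with an adipocyte or B cell score above 2.5. Replicate numbers do not pair tumors of different models. Simulated data with 200 changed genes and no variation between models were recovered to 96.5% at a log2 change of 1 and 79.5% at 0.5, with 12 and 4 false calls. The measured models did vary, so these false calls give no rate of error for the genes called above.

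Named genes were the 10 with the widest gap between model means in each direction among called genes without overlap of tumors, leaving out predicted symbols, Myc, and the first 2 called members by p of each list; further members were named after their values were seen. The members and lists were chosen with earlier results of these data known. Sequences are from RefSeq.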

Additional observations from a re-analysis of the deposited data

Results flagged for a closer look

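In each model the highest or lowest of the 4 tumors was compared with the others for 61 named genes and 10 marker scores. In 25 of these 355 groups of 4, 1 tumor stood apart by more than Dixon's critical value for 4 samples, which chance gives in about 1 of 20 groups. Of the 25, 13 were Met-1 replicate 2, the tumor with the B cell score of 4.61. It was the lowest of its model for Hey1 (9.73, nearest other tumor 11.45), Neto2 (7.50, nearest other tumor 9.06), Ehf (10.24, nearest other tumor 11.37), Ildr1 (9.09, nearest other tumor 10.60), Tyms (9.44, nearest other tumor 10.26) and Rfc4 (10.07, nearest other tumor 10.67). The same tumor was also the lowest for Cdkn2c (9.39, nearest other tumor 10.38), Phlda1 (9.73, nearest other tumor 11.30), Btc (6.53, nearest other tumor 7.47), Itgb8 (8.26, nearest other tumor 9.48), Ifit1 (7.62, nearest other tumor 8.76) and Slc7a5 (11.45, nearest other tumor 12.17). It was the highest for Ltc4s (7.99, nearest 7.07).

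Among the other models, single genes stood apart in M6 replicate 3 for Cdkn2c (11.12, nearest 10.08), HRM-1 replicate 3 for Ccng1 (12.20, nearest 12.43), M6 replicate 1 for Ereg (6.07, nearest 5.83), M6 replicate 2 for Btc (7.70, nearest 6.67), MVT-1 replicate 1 for Vegfb (9.99, nearest 9.82), HRM-1 replicate 3 for Cdh2 (6.77, nearest 6.50) and M6 replicate 3 for Gzmb (6.37, nearest 5.89). The milk proteins score of MVT-1 replicate 3 was -0.002, with the nearest tumor at 0.33. The milk proteins score of M6 replicate 2 was 3.911, with the nearest tumor at -0.178. The neutrophils score of HRM-1 replicate 2 was 0.268, with the nearest tumor at 0.478. The T and NK cells score of HRM-1 replicate 4 was 0.041, with the nearest tumor at -0.875. The B cells score of HRM-1 replicate 4 was 1.56, with the nearest tumor at -0.076.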

How the results depend on the processing

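The p-values rest on tumors within models, and treating models as the unit changed the counts most. With model means as samples, 0 genes were higher and 0 lower by limma (smallest adjusted p 0.153). With the model as a random block (correlation 0.378) 271 were higher and 317 lower, and all of these were among the 2009 and 1638 called. Asking each of the 6 pairs to pass gave 325 and 342, and asking nothing of the model means gave 3512 and 3628. Leaving out Met-1 gave 3200 higher and 3453 lower, leaving out M6 gave 2685 lower and leaving out HRM-1 gave 2592 lower; fewer means to separate make the rule easier to pass. Leaving out 1 tumor at a time gave 1766 to 2317 higher and 1544 to 1779 lower genes and a Myc difference of 1.598 to 1.878. The Myc difference was 1.39 without Met-1 and 2.004 without M6. All other settings stayed within 1.5 times the main counts. Replicate numbers did not pair the tumors (same-numbered tumors of different models had a median correlation of 0.10, from -0.40 to 0.50 over 40 pairs), and the replicate block gave 1994 higher and 1641 lower.

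For the 60 named genes other than Myc, 2115 of the alternative values kept the call, 165 lost it and 0 changed sign. All 60 lost it with model means as samples and 30 with the random block. The rule that each of the 6 pairs of models passes was not part of this tally. All leading genes passed that rule, while several others, such as Nop16, Mki67, Mdm2 and Cd68, did not. Thy1 lost its call in most settings of the tally, as with the 20 tumors only (adjusted p = 0.124). The calls of Mdm2 and Wnt10a were lost without HRM-1 (adjusted p = 0.17 and 0.181), those of Mcm5, Smad2, Wnt5b, Hey2, Flt4 and Slc3a2 without M6 (adjusted p = 0.0599, 0.0994, 0.0619, 0.212, 0.0588 and 0.0681), and those of Wap and Col6a1 without Met-1 (adjusted p = 0.2 and 0.391). Slc7a5 was lost without HRM-1 and without Met-1. Centring each array, which moves the median difference of all genes from 0.03 to 0.05, ended the calls of Rfc4, Mdm2, Flt4, Smad2, Wnt10a and Slc7a5 through the demand on means. The demand on means also ended the calls of Wdr12 without 6DT1 replicate 1 or 4 (differences 0.55 and 0.55, adjusted p = 0.000131 and 0.000132), of Btc without 6DT1 replicate 4 or M6 replicate 2 (-0.55 and -0.46) and of Ifit1 without MVT-1 replicate 4 (-0.98, adjusted p = 4.04e-05). The low sides of Neto2, Dlx5, Fbxl21, Ereg, Hey2 and, in MVT-1, Gabrp lay near the level of 5.65 that bounds the dimmest 30% of clusters, and differences among such tumors were not read.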

Other observations

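Some genes passed the adjusted p of the contrast by limma but belonged to 1 model and were not called. Nras, a Ras gene, had a mean of 12.74 in M6 and between 10.28 and 10.87 in the other 4 models. Rarb, a retinoic acid receptor, had 9.70 in M6 and at most 6.87 elsewhere, and the basal keratin Krt17 had 12.07 in M6 and at most 8.22 elsewhere. Lef1, a transcription factor of the Wnt pathway, had 10.63 in Met-1 and at most 7.13 elsewhere. Cdkn2a, which encodes the inhibitors p16 and p19, followed neither side, with means of 10.56 in HRM-1, 9.84 in M6, 8.96 in Met-1, 7.29 in MVT-1 and 7.14 in 6DT1. All of these were chosen after their values were seen.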
